A study of Mus musculus with 6 samples.

Results

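The genes that encode collagen chains were taken as every gene of the deposited expression table whose symbol is Col, a type number, a and a chain number. This gave 44 of the 46983 genes listed. They were grouped by the type of molecule into 11 fibrillar genes, 8 of basement membranes, 3 of short chain collagens, 6 of beaded filaments, 9 of fibril-associated collagens with interrupted helices (FACIT), 4 transmembrane genes and 3 anchoring or other genes. RNA was sequenced from whole hearts of mouse embryos at stage E13.5, labelled as cardiac tissue of the strain C57BL/6 x DBA/2, with 1 heart per library. The 3 mutant hearts (replicates 1, 5 and 10) were Tnnt2 Cre; Wt1 flox/flox, so that Cre, driven by the cardiac troponin T gene, removes the floxed Wt1 in cells of the troponin lineage. By the study's account, part of the epicardium also derives from that lineage. The 3 controls (replicates 2, 3 and 5) are labelled wild type, and by the study's methods they were Cre-negative embryos that also carry Wt1 flox/flox. The floxed alleles were therefore shared by all 6 hearts, and Cre was present in the mutant hearts alone, so the effect of Cre itself and that of losing Wt1 cannot be told apart. The comparison asks whether the chains of the heart's matrix differ in level between mutant and control hearts.

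Collagens are the structural proteins of the extracellular matrix. Each molecule is built from 3 polypeptide chains that wind into a triple helix, which is possible only where the chain repeats glycine and any 2 further residues. Fibrillar collagens form the fibres that carry tension, type IV and its partners form the sheet under endothelium, epicardium and muscle, and the short chain type VIII lies beneath endothelium and in the wall of growing vessels. In the embryonic heart, the fibrillar chains are made mainly by mesenchyme of the cushions and by fibroblasts arising from the epicardium, and the basement membrane chains by most cell types.

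The libraries held 44244665 to 56373393 gene counts. CPM, the counts relative to the total of a library, are scaled by the edgeR normalization, and values are given in the order wild type replicates 2, 3 and 5, then mutant replicates 1, 5 and 10. Wt1 itself was at 40.0, 32.9 and 20.0 CPM in the wild type hearts and 17.7, 33.3 and 35.7 CPM in the mutant hearts, with overlapping groups. These counts cover the whole gene, in hearts whose epicardium also expresses Wt1, and were not resolved to the floxed exon, so they do not check the labels. The cardiomyocyte markers fixed for the tissue were all detected, at a summed level of 18152 to 24479 CPM over the 6 hearts, and Tnnt2 was at 3960.0 ± 73.9 CPM in the wild type and 4277 ± 183 CPM in the mutant (mean ± SD, n = 3 each). Wild type replicate 5 stood apart from the other hearts: across 11845 genes with a mean above 4 CPM, its deviation from the mean of the 6 hearts was related to gene length with a Spearman rho of -0.555, against 0.464 in mutant replicate 5 and values between these in the other 4 hearts. Wild type replicate 3 held liver transcripts, with a summed level of 758 CPM for 6 liver markers against 0.801 to 19.7 CPM in the other hearts.

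The triple helix can be read from the coding sequence as a glycine codon, GGN, at the head of each triplet of codons. The stretches below open the longest uninterrupted helix of the chains on which the comparison turns, those of type I and of type VIII. They were read 5′ to 3′ from the transcript with the longest coding sequence in GENCODE M21, with the glycine codons that start each triplet in capitals.
Col1a1, from codon 168: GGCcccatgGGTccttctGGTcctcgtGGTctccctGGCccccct
Col1a2, from codon 97: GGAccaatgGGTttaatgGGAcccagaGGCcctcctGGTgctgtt
Col8a1, from codon 352: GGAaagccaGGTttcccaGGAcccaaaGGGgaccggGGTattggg
Col8a2, from codon 312: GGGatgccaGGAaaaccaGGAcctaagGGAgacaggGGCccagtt

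The length of that uninterrupted run differed between the classes. In 9 of the 11 fibrillar genes it lasted 337 to 344 triplets, with 338 in Col1a1 and 339 in Col1a2, and it was shorter in the remaining 2, at 216 triplets in Col24a1 and 217 in Col27a1. In the short chain genes it lasted 61 triplets in Col8a1, 60 in Col8a2 and 61 in Col10a1. The 6 type IV genes had runs of 39 to 66 triplets in coding sequences of 1669 to 1707 codons, and type IV collagen is known for a helix with many short interruptions. The shortest run was in Col26a1, with 23 triplets in a coding sequence of 440 codons. Col8a1 and Col8a2 code for 744 and 699 codons, Col1a1 and Col1a2 for 1453 and 1372.

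Collagen transcripts made up 0.606, 0.565 and 0.354% of all counts in the wild type hearts and 0.557, 0.745 and 0.640% in the mutant hearts. The means were 0.508 ± 0.135% and 0.647 ± 0.0942% (mean ± SD, n = 3 each). The groups overlapped, since mutant replicate 1 lay below the 2 higher wild type hearts, and wild type replicate 5 was the lowest heart. Without it the difference was 0.0622 percentage points, against 0.139 with all hearts.

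Levels of different genes were compared on the deposited FPKM, which divides by a length per gene. Col3a1, a fibrillar chain of vessels and soft tissue, was first at 548 FPKM over the 6 hearts. It was followed by the 2 chains of type I, the main fibril of connective tissue, with Col1a1 at 466 FPKM and Col1a2 at 325 FPKM. Next came the ubiquitous basement membrane chains Col4a1 at 188 FPKM and Col4a2 at 138 FPKM, then Col5a2, which helps to start fibrils, at 129 FPKM, and Col18a1, the source of endostatin, at 113 FPKM. Col2a1, the cartilage fibril chain, Col4a5 and Col26a1 closed the first 10 at 58.7, 56.1 and 50.7 FPKM. These 10 genes held 87.2% of the summed FPKM of the 44. Of the 44, 31 were above 1 FPKM and 21 above 10 FPKM, and the type VIII chains were in the lower part of the order, Col8a2 at rank 24 and Col8a1 at rank 29.

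Neighbours in this order often did not differ beyond their spread. Col3a1 was at 514 ± 104 FPKM in the wild type and 582 ± 72.0 FPKM in the mutant, and Col1a1 at 323 ± 103 FPKM in the wild type and 608 ± 159 FPKM in the mutant, so that Col3a1 led in the wild type and the means of the 2 genes lay within 1 SD of each other in the mutant. Col4a2, Col5a2 and Col18a1 were also within 1 SD of each other in the wild type, at 124 ± 49.1, 118 ± 38.0 and 108 ± 40.2 FPKM (mean ± SD, n = 3). The length behind the deposited FPKM was close to the mean over a gene's transcripts, and with the length of the longest coding transcript instead 9 of the first 10 genes were shared.

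**Figure D1:**
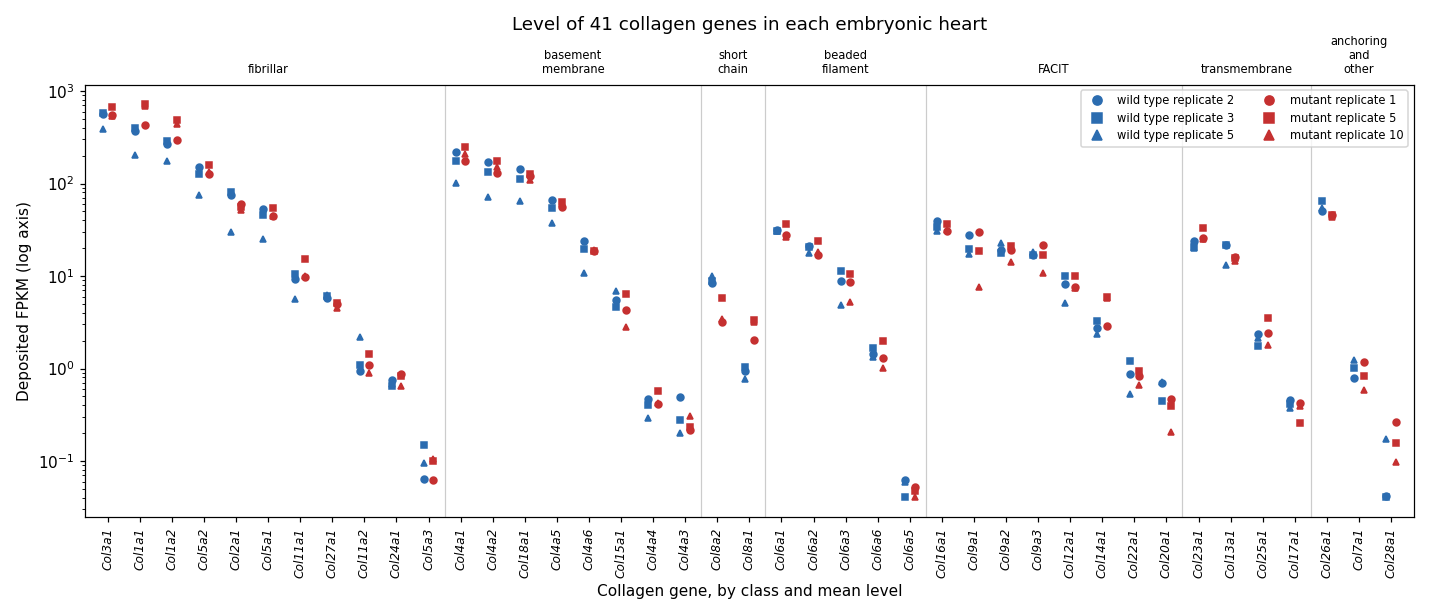
Deposited FPKM (log axis) of the 41 collagen genes that were tested, in each of the 6 hearts, by class and in falling order within a class (blue: 3 wild type hearts, red: 3 mutant hearts). Mean levels run from 548 FPKM for Col3a1 down to 0.0506 FPKM for Col6a5, and wild type replicate 5 (blue triangles) is the lowest heart for most of the abundant fibrillar and basement membrane genes.

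For 41 of the 44 genes the counts passed the filter on low values and entered the edgeR quasi-likelihood test. Col6a4, Col10a1 and Col19a1 did not. Col10a1, the chain of hypertrophic cartilage, had 0, 0 and 4 counts in the wild type hearts and 0, 0 and 3 counts in the mutant hearts. Col19a1 had 4, 9 and 0 counts in the wild type hearts and 7, 4 and 6 counts in the mutant hearts, and Col6a4 7, 4 and 26 counts in the wild type hearts and 3, 4 and 11 counts in the mutant hearts.

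None of the 41 collagen genes differed between mutant and wild type at a Benjamini-Hochberg adjusted p under 0.05 in edgeR, as was so for all 17473 genes tested (0%). At an unadjusted p under 0.05, 5 collagen genes were higher in the mutant (Col8a1, Col1a1, Col23a1, Col1a2 and Col14a1), where 3.14% of all genes tested were, and 3 were lower (Col8a2, Col26a1 and Col27a1), where 2.59% were. The hearts of the groups did not overlap for 4 genes that were higher (the same without Col14a1), beside 6.61% of all genes, and for the same 3 that were lower, beside 4.59%. Over the 41 genes, 20 log2 fold changes were positive and 21 negative, with a median of -0.00042, and the median over all genes tested was -0.0010. With limma-voom and limma-trend no collagen gene passed the adjusted threshold either. DESeq2, the package of the study's own methods, gave an adjusted p under 0.05 to 132 of 20013 genes (0.660%), among them Col8a1 and Col8a2. Whole hearts were sequenced, so that more or fewer cells of a type and more or less RNA per cell cannot be told apart in any of these values.

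The counts at an unadjusted p varied with single hearts. Without mutant replicate 5, the higher genes were 2, Col1a1 and Col8a1. Without mutant replicate 10, Col8a2 alone was lower. Leaving out wild type replicate 5 gave 6 higher and 5 lower, with Col2a1 and Col13a1 joining the lower genes and Col28a1 the higher ones. The share of all genes at that p is not given for these fits, so the counts do not show a trait of the collagen genes.

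**Figure D2:**
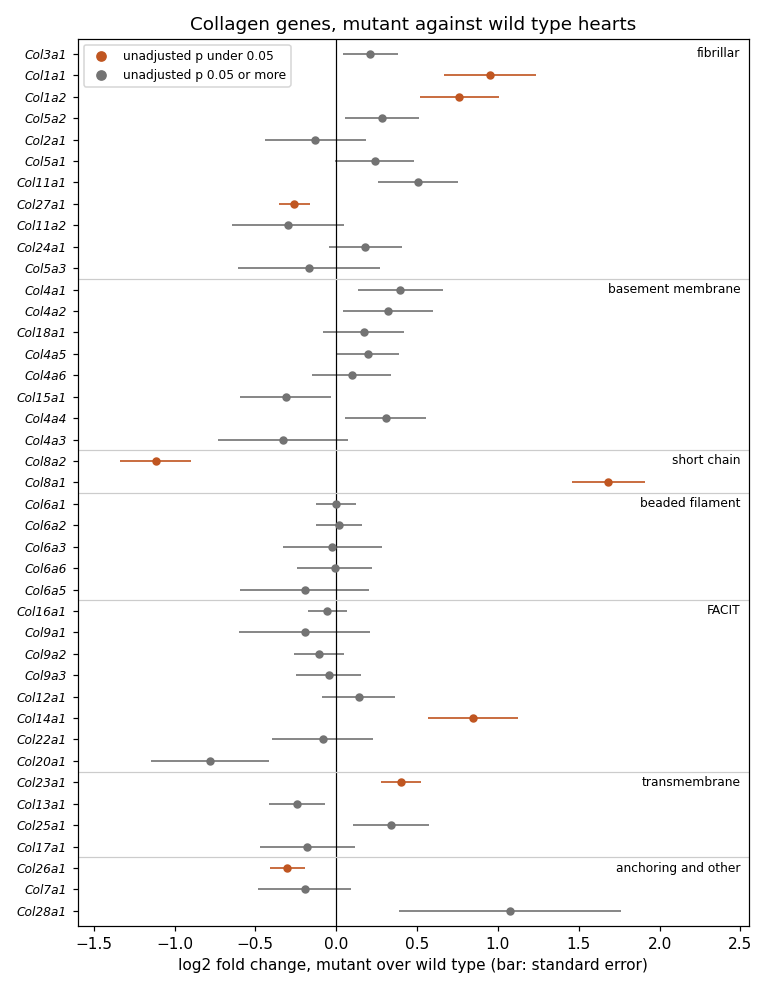
log2 fold change of 41 collagen genes, mutant over wild type, from edgeR (points: estimate, bars: standard error, 3 hearts per group), by class and in falling order of level within a class. Orange marks the 8 genes with an unadjusted p under 0.05. Col8a1 lies farthest to the right at 1.68 and Col8a2 farthest to the left at -1.12, while most genes sit within 0.5 of zero.

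Col8a1 and Col8a2, the 2 chains of type VIII collagen, differed most and in opposite directions. Col8a1 (ENSMUSG00000068196, GRCm38 chr16:57624258-57754737, minus strand) was at 4.69, 5.18 and 3.95 CPM in the wild type hearts and 10.2, 17.2 and 17.0 CPM in the mutant hearts. Every mutant heart lay above every wild type heart, and the lowest of them, replicate 1, was still well clear of the highest wild type heart. The group levels were 4.61 ± 0.618 CPM in the wild type and 14.8 ± 3.99 CPM in the mutant (mean ± SD, n = 3 each), a log2 fold change of 1.68 ± 0.22 (SE) or 3.21-fold. The edgeR Benjamini-Hochberg adjusted p was 0.113, and the DESeq2 adjusted p was 5.48e-09, within a range of 1.09e-15 to 0.668 over the alternative settings. Leaving out each heart in turn gave log2 fold changes of 1.55 to 1.89, and with DESeq2 the adjusted p was under 0.05 in all 6 of these fits.

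Col8a2 (ENSMUSG00000056174, GRCm38 chr4:126286793-126314330, plus strand) was at 19.5, 20.5 and 23.3 CPM in the wild type hearts and 7.33, 13.4 and 8.49 CPM in the mutant hearts. All wild type hearts lay above all mutant hearts, with mutant replicate 5 nearest to them. Its group levels were 21.1 ± 2.00 CPM in the wild type and 9.72 ± 3.20 CPM in the mutant (mean ± SD, n = 3 each), a log2 fold change of -1.12 ± 0.22 (SE). The edgeR adjusted p was 0.276 and the DESeq2 adjusted p 6.52e-04, within 9.24e-10 to 0.9999 over the alternative settings. The DESeq2 call was lost without mutant replicate 10, where the adjusted p was 0.0585. No exon of either gene overlaps an exon on the opposite strand.

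The ratio of the 2 chains therefore differed more between the groups than either chain alone. As deposited FPKM, Col8a1 over Col8a2 was 0.110, 0.116 and 0.0775 in the wild type hearts and 0.638, 0.590 and 0.919 in the mutant hearts. The means were 0.101 ± 0.0207 against 0.716 ± 0.177 (mean ± SD, n = 3 each), a difference of 2.82 on the log2 scale, and it was 2.62 to 2.94 when each heart was left out. The ratio was chosen with the change of both chains in view and is given as a description with no test. It is a ratio of RNA levels and does not give the make-up of a molecule. By deposited FPKM Col8a2 was above Col8a1 in every heart. Per kilobase of the longest coding transcript it was so in the wild type hearts only: Col8a1 was at 2.04, 3.39 and 3.16 and Col8a2 at 1.72, 3.095 and 1.86 in the mutant hearts, as FPKM recomputed with that length, so which chain was higher there differs with the length used. The share of the short chain genes in all collagen FPKM was lower in the mutant, at 0.516 ± 0.187% in the wild type and 0.257 ± 0.0343% in the mutant (mean ± SD, n = 3 each), and the groups did not overlap. With the longest transcript as the length this share was 0.694 ± 0.239% and 0.448 ± 0.0584%, again without overlap. With that length Col8a1 was at 0.931, 1.03 and 0.770 and Col8a2 at 4.57, 4.82 and 5.36 in the wild type hearts. A share also falls when other collagen genes are higher, as Col1a1 and Col1a2 were in the mutant. It therefore does not give the level of the short chain genes.

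The promoter windows of both genes are shown as RefSeq has them on GRCm38.p6, from 250 bases before to 50 bases after the start, with matches to short motifs in capitals. The motifs searched on both strands were the GC box GGGCGG, the TATA box TATAAA, the CCAAT box CCAAT and GCGGGGGCG, an element of the kind bound by EGR and WT1 zinc fingers. The Col8a1 window lies at chr16:57754688-57754987, minus strand.
Col8a1 promoter: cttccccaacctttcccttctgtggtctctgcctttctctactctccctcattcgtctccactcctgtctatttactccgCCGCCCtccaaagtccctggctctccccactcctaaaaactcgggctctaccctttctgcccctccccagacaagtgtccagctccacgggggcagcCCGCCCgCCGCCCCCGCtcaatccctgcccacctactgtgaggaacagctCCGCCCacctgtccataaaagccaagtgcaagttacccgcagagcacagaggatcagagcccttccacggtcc
The Col8a2 window lies at chr4:126286544-126286843, plus strand.
Col8a2 promoter: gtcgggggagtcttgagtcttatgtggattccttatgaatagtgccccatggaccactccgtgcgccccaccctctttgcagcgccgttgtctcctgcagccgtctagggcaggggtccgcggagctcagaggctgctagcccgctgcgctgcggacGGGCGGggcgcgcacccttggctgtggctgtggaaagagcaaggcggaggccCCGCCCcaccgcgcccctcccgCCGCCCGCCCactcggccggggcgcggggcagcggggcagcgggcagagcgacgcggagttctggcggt
Each of the windows held 4 GC boxes and neither a TATA box nor a CCAAT box, at a GC content of 60.3% for Col8a1 and 71.7% for Col8a2. The Col8a1 window also held GCGGGGGCG once, overlapping a GC box. Of the 44 collagen genes, 35 had a promoter window, with 38 windows between them. A GC box was found in 23 of these 38 windows, from 22 genes, and in 35.7% of all 32851 windows. TATAAA was found in 5 of the 38 and in 13.6% of all windows, and CCAAT in 13 of the 38 and in 37.4%. GCGGGGGCG was found in 1 of the 38, that of Col8a1, and in 2.91% of all windows. A match says only that the letters are present in the window.

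Col1a1 and Col1a2, the chains of type I collagen, which combine in a fixed proportion of 2 and 1, were both higher in the mutant. Col1a1 (ENSMUSG00000001506, GRCm38 chr11:94936224-94953042, plus strand) was at 643, 695 and 367 CPM in the wild type hearts and 746, 1272 and 1280.0 CPM in the mutant hearts. Mutant replicate 1 lay just above wild type replicate 3, and the other 2 mutant hearts lay far above. The levels were 569 ± 176 CPM in the wild type and 1099 ± 306 CPM in the mutant (mean ± SD, n = 3 each), a log2 fold change of 0.95 ± 0.29 (SE) with an edgeR adjusted p of 0.652. Leaving out each heart gave 0.72 to 1.17. DESeq2 gave an adjusted p of 0.0517 with all hearts, 0.0254 without wild type replicate 3, 0.00426 without mutant replicate 1 and above 0.05 in the remaining 4 fits with a heart left out. The adjusted p lay within a range of 0.00426 to 0.9999 over the alternative settings.

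Col1a2 (ENSMUSG00000029661, GRCm38 chr6:4504814-4541544, plus strand) followed its partner at 603, 649.7 and 407 CPM in the wild type hearts and 656, 1106 and 1053 CPM in the mutant hearts. Here the gap between mutant replicate 1 and wild type replicate 3 was small, and the groups only just failed to overlap. Its log2 fold change was 0.76 ± 0.24 (SE), with an edgeR adjusted p of 0.688, and 0.58 to 0.97 with each heart left out. In both genes wild type replicate 5 was the lowest heart and mutant replicates 5 and 10 were the highest. The FPKM ratio of Col1a1 over Col1a2 was 1.37, 1.37 and 1.16 in the wild type hearts and 1.46, 1.48 and 1.56 in the mutant hearts, with means of 1.30 ± 0.122 against 1.50 ± 0.0535 (mean ± SD, n = 3 each). The groups did not overlap, and the difference of 0.21 on the log2 scale was 0.13 without wild type replicate 5. Col1a1 had no window in the promoter table. The Col1a2 window lies at chr6:4505368-4505667, plus strand, inside the span that GENCODE gives the gene, with 2 GC boxes and 2 CCAAT boxes in capitals.
Col1a2 promoter: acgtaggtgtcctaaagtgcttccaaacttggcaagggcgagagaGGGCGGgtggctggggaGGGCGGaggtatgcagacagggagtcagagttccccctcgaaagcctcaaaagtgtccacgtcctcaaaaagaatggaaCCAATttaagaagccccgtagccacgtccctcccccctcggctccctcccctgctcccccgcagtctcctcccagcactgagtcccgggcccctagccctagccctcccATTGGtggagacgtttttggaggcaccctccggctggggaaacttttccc

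**Figure D3:**
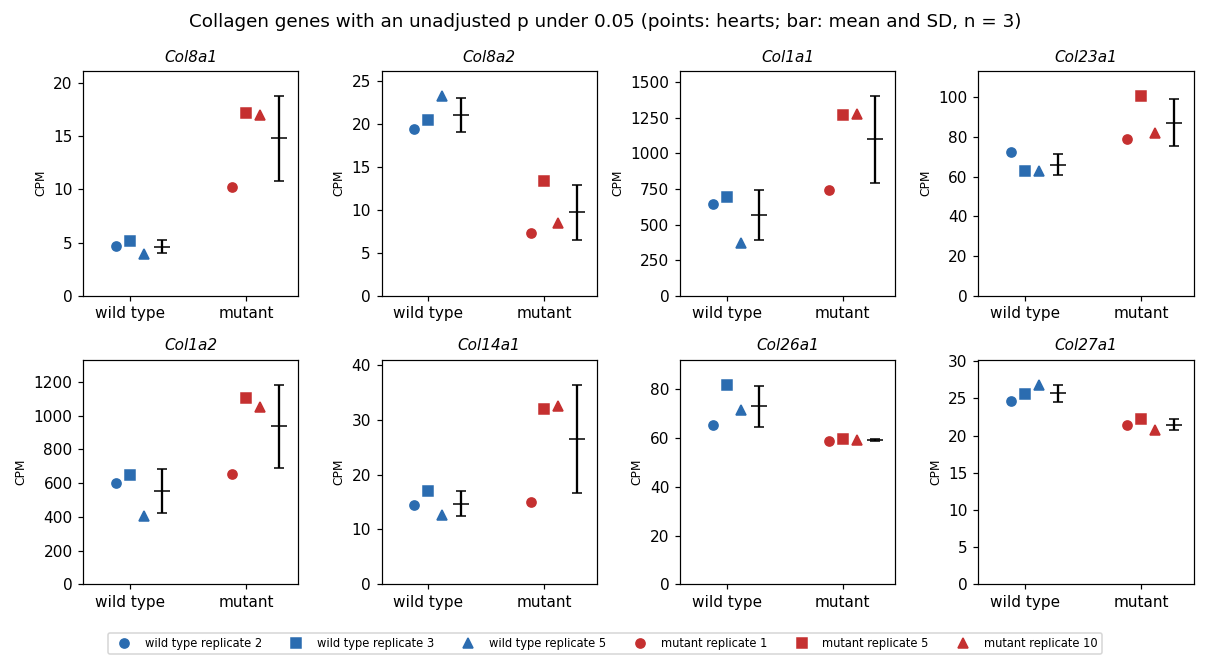
CPM of the 8 collagen genes with an unadjusted p under 0.05, in order of that p, in each heart (points; blue: wild type, red: mutant), with the mean and SD of 3 hearts beside them and every axis from 0. Col8a1 is above its highest wild type heart in all 3 mutant hearts, Col1a1, Col1a2 and Col14a1 have mutant replicate 1 (red circle) close to the wild type hearts, and Col26a1 has the 3 mutant hearts at 58.7 to 59.5 CPM.

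The other fibrillar genes showed smaller differences. Col3a1 was at 1014, 1025 and 714 CPM in the wild type hearts and 976, 1197 and 1015 CPM in the mutant hearts, with overlapping groups, a log2 fold change of 0.21 ± 0.17 (SE) and an edgeR adjusted p of 0.985. Col5a2 was at 439.9, 372 and 227 CPM in the wild type hearts and 375, 472 and 416 CPM in the mutant hearts, also overlapping, with 0.28 ± 0.23 (SE). Both genes were lowest in wild type replicate 5 and highest in mutant replicate 5. Col27a1, a fibrillar chain of cartilage with a shorter helix, was at 24.6, 25.6 and 26.9 CPM in the wild type hearts and 21.4, 22.2 and 20.8 CPM in the mutant hearts, with every mutant heart below every wild type heart. Its log2 fold change was -0.26 ± 0.095 (SE) with an edgeR adjusted p of 0.783. Over the 11 fibrillar genes, 7 log2 fold changes were positive and 4 negative, with a median of 0.21. That median was 0.060 without wild type replicate 5 and at most 0.30 with any other heart left out. The share of fibrillar genes in all collagen FPKM was 62.0, 66.2 and 62.7% in the wild type hearts and 66.3, 69.9 and 71.0% in the mutant hearts, without overlap but with wild type replicate 3 and mutant replicate 1 nearly equal. The share of beaded filament genes was 3.03 ± 0.602% in the wild type and 2.22 ± 0.263% in the mutant, and that of the anchoring and other genes 2.92 ± 0.848% and 1.74 ± 0.290%, both without overlap, and the shares of the basement membrane, FACIT and transmembrane genes overlapped (mean ± SD, n = 3 each). These shares add to a fixed total, so they do not vary independently of each other.

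Col2a1, the main fibril chain of cartilage, was at 119, 127 and 47.7 CPM in the wild type hearts and 93.4, 88.2 and 87.1 CPM in the mutant hearts. Wild type replicate 5 was the lowest heart and the other wild type hearts were the highest, so that the log2 fold change was -0.13 ± 0.31 (SE) with all hearts, -0.46 when wild type replicate 5 was left out and 0.10 when it was wild type replicate 3. The direction differed with which wild type heart was left out. The 6 genes of the cartilage marker list that had a row summed to 169, 159 and 96.8 CPM in the wild type and 161, 139.8 and 104 CPM in the mutant hearts. Most of that sum was Hapln1, at 63.8 to 122 CPM over the 6 hearts, followed by Sox9 at 17.1 to 34.2 CPM. Acan, Matn1 and Matn3 were each at or below 3.28 CPM, so the sum says little of them. Matn1 had 0 counts in wild type replicate 5 and in mutant replicate 1. Of the markers tested, 2 had positive and 3 negative log2 fold changes. The sum was also lowest in wild type replicate 5, and neither the presence of cartilage cells nor their part in the Col2a1 values was tested. Col9a1, a FACIT chain of cartilage, varied widely at 59.2, 41.6 and 37.2 CPM in the wild type hearts and 63.4, 40.1 and 17.1 CPM in the mutant hearts. Its lowest value was in mutant replicate 10, the mutant heart with the lowest sum of these markers, which is mainly Hapln1. Col11a1 over Col11a2, chains of the cartilage fibril core, had an FPKM ratio of 9.74, 9.51 and 2.54 in the wild type hearts and 9.03, 10.7 and 11.3 in the mutant hearts, and wild type replicate 5 alone stood apart.

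The basement membrane genes had overlapping groups throughout, and none had an unadjusted p under 0.05. Col4a1 was at 779.8, 628 and 367 CPM in the wild type hearts and 631, 897 and 809 CPM in the mutant hearts, with a log2 fold change of 0.40 ± 0.26 (SE) and an edgeR adjusted p of 0.968. Col4a2 was at 453, 351 and 196 CPM in the wild type hearts and 345, 475 and 429.7 CPM in the mutant hearts, with 0.32 ± 0.28 (SE). For both, wild type replicate 5 was far below the rest and the other wild type hearts lay within or next to the range of the mutant. Col4a5, a chain of the X-linked pair, was at 282, 228 and 160.5 CPM in the wild type hearts and 231, 268 and 268 CPM in the mutant hearts, with 0.19 ± 0.19 (SE). Col18a1 was at 539, 417 and 247 CPM in the wild type hearts and 443, 473 and 436 CPM in the mutant hearts, with 0.17 ± 0.25 (SE), which turned to -0.085 without wild type replicate 5. Of the 8 genes, 6 log2 fold changes were positive and 2 negative, and their median of 0.18 became -0.040 without wild type replicate 5. The sum of 8 endothelial markers, all detected, was 1084, 919 and 796 CPM in the wild type and 970.0, 1201 and 1141 CPM in the mutant hearts, again lowest in wild type replicate 5. The part of endothelial content in these values was not tested.

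The chains of type IV collagen are encoded by gene pairs that start next to each other on opposite strands. On GRCm38 the annotated ends of Col4a1 and Col4a2 overlapped by 22 bases on chromosome 8, Col4a4 and Col4a3 were 71 bases apart on chromosome 1, and Col4a6 and Col4a5 were 1308 bases apart on chromosome X. Levels within the first pair ran in parallel over the hearts: the FPKM ratio of Col4a1 over Col4a2 stayed at 1.282, 1.33 and 1.39 in the wild type hearts and 1.36, 1.41 and 1.40 in the mutant hearts. Those are the narrowest relative limits of the 8 chain pairs beside Col5a1 over Col5a2, which was 0.357, 0.359 and 0.331 in the wild type hearts and 0.349, 0.341 and 0.335 in the mutant hearts. The other pairs differed in level, with Col4a5 at 56.1 and Col4a6 at 18.5 FPKM, and with Col4a3 and Col4a4 at 0.286 and 0.431 FPKM. The RefSeq window of Col4a1, at chr8:11312777-11313076, minus strand, takes in the start of both genes of the first pair, with 1 GC box and 1 CCAAT box in capitals and a GC content of 74.0%. The kit used here is not stated to keep strand, so reads from exons on the opposite strand, which overlap 0.98% of the exon bases of Col4a2, cannot be told apart from its own.
Col4a1 promoter: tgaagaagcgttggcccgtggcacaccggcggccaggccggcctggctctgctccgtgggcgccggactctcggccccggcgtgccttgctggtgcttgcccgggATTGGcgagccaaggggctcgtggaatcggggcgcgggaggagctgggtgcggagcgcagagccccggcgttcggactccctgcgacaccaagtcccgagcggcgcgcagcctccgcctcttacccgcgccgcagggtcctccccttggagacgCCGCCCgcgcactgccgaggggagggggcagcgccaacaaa

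**Figure D4:**
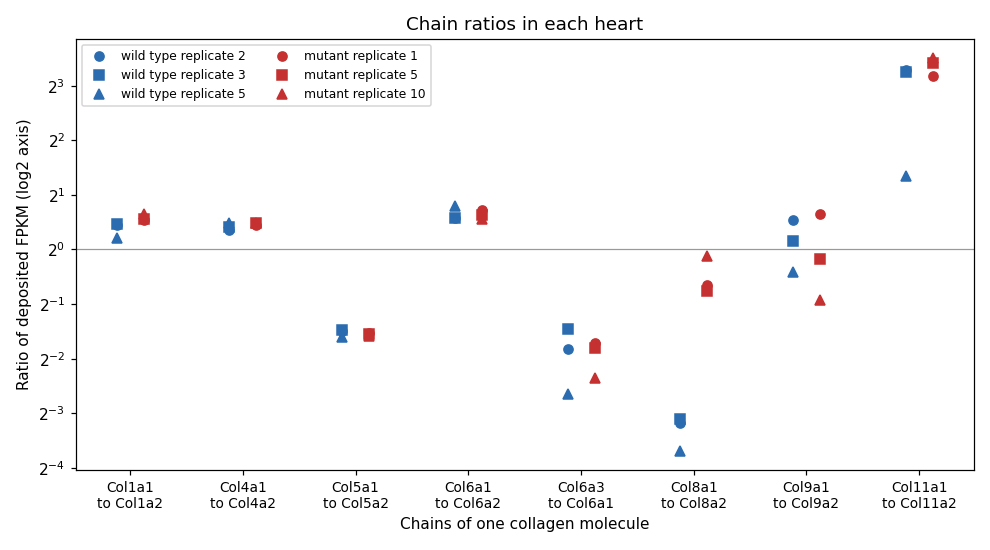
Ratio of deposited FPKM (log2 axis) between chains of the same collagen type, in each of the 6 hearts (blue: wild type, red: mutant), for 8 chain pairs. Col8a1 over Col8a2 is the pair with the widest distance between groups, with 0.0775 to 0.116 in the wild type and 0.590 to 0.919 in the mutant, while Col4a1 over Col4a2 and Col5a1 over Col5a2 hardly vary.

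Genes of the beaded filament collagen, type VI, which links cells to the surrounding fibres, differed little. Col6a1 was at 77.8, 76.1 and 77.1 CPM in the wild type hearts and 68.7, 91.4 and 70.9 CPM in the mutant hearts. The wild type hearts were within 2 CPM of each other and inside the range of the mutant hearts, and the log2 fold change was -0.00042 with an SE of 0.13. Of the 5 type VI genes tested, 1 log2 fold change was positive and 4 negative, from -0.20 for Col6a5 to 0.016 for Col6a2, and their median was -0.0098. The FPKM ratio of Col6a1 over Col6a2 was 1.57 ± 0.137 against 1.55 ± 0.0827 (mean ± SD, n = 3 each), in wild type against mutant.

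Among the FACIT genes, Col14a1, whose product binds the surface of type I fibrils, was at 14.5, 17.0 and 12.7 CPM in the wild type hearts and 15.04, 31.9 and 32.5 CPM in the mutant hearts. Mutant replicates 5 and 10 lay well above the wild type hearts and mutant replicate 1 lay among them, so the groups overlapped. The log2 fold change was 0.85 ± 0.28 (SE) with an edgeR adjusted p of 0.710, and 0.67 to 1.13 with each heart left out. Col1a1, Col1a2, Col14a1 and Col8a1 had the same 2 hearts highest, mutant replicates 5 and 10. Col16a1, the FACIT gene with the highest level, was at 79.2, 68.3 and 63.6 CPM in the wild type hearts and 61.6, 74.8 and 66.9 CPM in the mutant hearts, with -0.054 ± 0.12 (SE). The 8 FACIT genes tested had 2 positive and 6 negative log2 fold changes, from -0.78 for Col20a1 to 0.85 for Col14a1, with a median of -0.069.

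Col23a1, a transmembrane collagen, was at 72.4, 62.9 and 62.9 CPM in the wild type hearts and 78.7, 101 and 81.9 CPM in the mutant hearts, with all mutant hearts above the wild type hearts. Its log2 fold change was 0.40 ± 0.12 (SE) with an edgeR adjusted p of 0.682. The other 3 transmembrane genes lay at -0.24 for Col13a1, -0.18 for Col17a1 and 0.34 for Col25a1. Col26a1, the most abundant of the anchoring and other genes, was at 65.3, 82.0 and 71.7 CPM in the wild type hearts and 58.7, 59.5 and 59.2 CPM in the mutant hearts. The mutant hearts lay within 1 CPM of each other and below the wild type hearts, a log2 fold change of -0.30 ± 0.11 (SE) with an edgeR adjusted p of 0.767. Col28a1 had the second largest positive log2 fold change of the 41, at 1.07 ± 0.69 (SE), on 4, 4 and 13 counts in the wild type hearts and 23, 14 and 9 counts in the mutant hearts, and its groups overlapped.

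Read by heart, the extremes of the collagen genes were spread unevenly. Wild type replicate 5 was the lowest of the 6 hearts for 20 of the 41 genes, where it was the lowest for 31.1% of all genes tested. Mutant replicate 5 was the highest for 15 of the 41, where it was the highest for 15.3% of all genes. Wild type replicate 5 was also the highest heart for 7 of the 41 genes, where it was the highest for 29.3% of all genes. Mutant replicate 10 was the lowest for 9, where it was the lowest for 14.5% of all genes. Wild type replicate 5 and mutant replicate 5 are also the hearts at the ends of the relation to gene length given above. The same hearts had the highest sums of 8 foregut and airway epithelium markers, at 14.6 and 14.8 CPM, against 1.15 to 6.02 CPM in the others. The part of either trait in the collagen values was not tested. When a smooth trend on gene length was taken out in edgeR and wild type replicate 5 was left out, Col8a1 passed the adjusted threshold and no other collagen gene did, and the median of the collagen genes was -0.016.

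**Figure D5:**
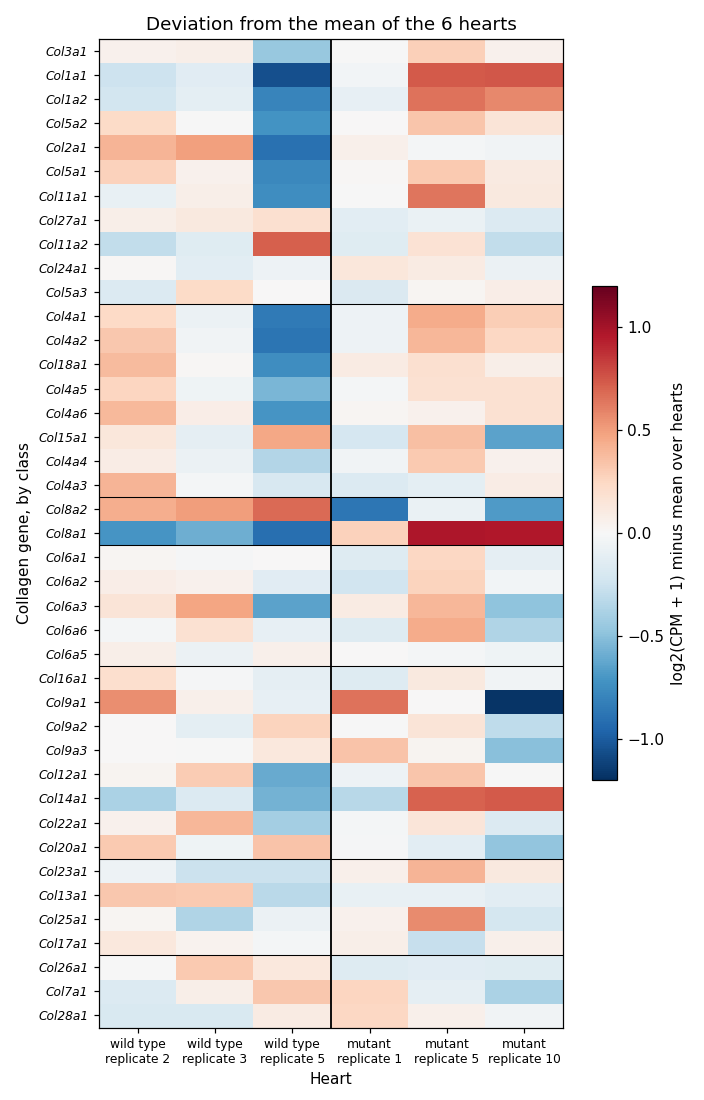
Deviation of log2(CPM + 1) from the mean of the 6 hearts for 41 collagen genes (rows, by class) in each heart (columns; wild type left of the line, mutant right). Wild type replicate 5 is blue for most fibrillar and basement membrane genes and is the lowest heart for 20 of the 41 genes, mutant replicate 5 is the highest for 15, and Col8a1 and Col8a2 are the rows whose colours split at the line in opposite directions.

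Of 67 other genes of collagen production and recognition, 61 were tested. None passed the adjusted threshold in edgeR, and at an unadjusted p under 0.05 6 were higher and 1 lower, where 3.14% and 2.59% of all genes tested were. Of the 61 log2 fold changes 45 were positive and 16 negative, with a median of 0.11, beside 8699 positive of 17473 over all genes. That median was 0.039 to 0.17 with a heart left out. DESeq2 gave an adjusted p under 0.05 to Lox and Tnxb, 2 genes of the list, where it did so for 0.660% of all genes. Prolyl and lysyl hydroxylases and glycosyltransferases modify the chain as it is made. In that list of 18 genes, 15 log2 fold changes were positive, with P4ha1, a prolyl hydroxylase subunit, at 0.30 ± 0.12 (SE, edgeR adjusted p 0.857) and Plod2, a lysyl hydroxylase, at 0.28 ± 0.12 (SE, adjusted p 0.865). Among 9 genes of folding and export, 8 were positive, with Sparc, a collagen-binding matrix protein, at 1385, 1233 and 1149 CPM in the wild type hearts and 1399, 1643 and 1649 CPM in the mutant hearts and a log2 fold change of 0.32 ± 0.13 (SE, edgeR adjusted p 0.860). Propeptide cleavage had 4 positive and 3 negative among 7 genes, and the smallest p there belonged to Pcolce2, an enhancer of that cleavage, at -0.82 ± 0.40 (SE, edgeR adjusted p 0.920) with overlapping groups. The medians of these sublists were lower, to different degrees, when wild type replicate 5 was left out. Without it the median went from 0.098 to 0.065 for hydroxylation and glycosylation and from 0.14 to 0.012 for folding and export. For propeptide cleavage it went from 0.096 to -0.088.

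Lox, the lysyl oxidase that starts the cross-links between fibrillar chains, was at 55.5, 60.5 and 54.9 CPM in the wild type hearts and 70.7, 108 and 98.0 CPM in the mutant hearts. All mutant hearts lay above the wild type hearts, with a log2 fold change of 0.69 ± 0.16 (SE), an edgeR adjusted p of 0.385 and a DESeq2 adjusted p of 0.0180, within 1.27e-05 to 0.9999 over the alternative settings. Of the 5 cross-linking genes 3 were positive and 2 negative, with a median of 0.29 that was 0.061 without wild type replicate 5. Tnxb, tenascin X, a matrix protein that regulates the spacing of collagen fibrils, was at 16.4, 7.08 and 9.997 CPM in the wild type hearts and 1.35, 2.27 and 1.47 CPM in the mutant hearts. Its wild type hearts spread more than its mutant hearts and lay above all of them, with a log2 fold change of -2.72 ± 0.35 (SE), an edgeR adjusted p of 0.112 and a DESeq2 adjusted p of 6.67e-13, within 1.31e-15 to 0.668 over the alternative settings. The other fibril regulators brought the list to 8 positive and 4 negative among 12 tested.

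Among 10 collagen receptors, 7 log2 fold changes were positive and 3 negative. Gp6, the collagen receptor of platelets, had 13, 8 and 17 counts in the wild type hearts and 39, 54 and 42 counts in the mutant hearts, a log2 fold change of 1.80 ± 0.44 (SE, edgeR adjusted p 0.441), and Lair1, a receptor of immune cells, was at 0.79 ± 0.31 (SE, adjusted p 0.835). Both are genes of blood cells and their levels were low. The receptors of mesenchyme and epithelium, Ddr2 and Ddr1, were at 0.032 ± 0.21 and 0.0056 ± 0.13 (SE).

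Markers of the cell types that make collagen were read beside these values. The 8 fibroblast and mesenchyme markers, all detected, summed to 720 to 882 CPM in the wild type and 603 to 896 CPM in the mutant, with 4 positive and 4 negative log2 fold changes, and Tcf21 was lower and Thy1 higher in every mutant heart than in any wild type heart. Tcf21, a transcription factor of cardiac fibroblast precursors, had a log2 fold change of -1.10 ± 0.15 (SE, edgeR adjusted p 0.113, DESeq2 adjusted p 1.66e-07, 1.15e-08 to 0.668 over the alternative settings). Thy1, a surface protein of fibroblasts, was at 1.01 ± 0.24 (SE, edgeR adjusted p 0.413, DESeq2 adjusted p 0.0193, 0.00715 to 0.9999 over the alternative settings). The 8 epicardial markers, all detected, summed to 230.2 to 470 CPM in the wild type and 291 to 523 CPM in the mutant, lowest in wild type replicate 5 and highest in mutant replicate 10. Of these markers 5 had positive and 3 negative log2 fold changes, with a median of 0.14, and Wt1 was at -0.10, Tbx18 at -0.096 and Aldh1a2 at -0.26. Krt8 and Upk1b were higher in every mutant heart than in any wild type heart, Krt8 at 1.13 ± 0.21 (SE, log2, edgeR adjusted p 0.273, DESeq2 adjusted p 2.53e-04, 1.46e-08 to 0.9999 over the alternative settings). Tcf21, Thy1 and Krt8 were the genes of all the marker lists that DESeq2 called. The 6 smooth muscle markers summed to 1526 to 1716 CPM in the wild type and 1551 to 1767 CPM in the mutant, and 7 markers of neural crest and glia to 30.2 to 35.9 CPM and 25.3 to 31.2 CPM. The part of these cell types in the values of Col8a1, Col8a2 and the type I chains was not tested. Without wild type replicate 3, the heart with liver transcripts, the log2 fold changes were 1.78 for Col8a1, -1.14 for Col8a2, 1.12 for Col1a1 and 0.90 for Col1a2.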

How the data were processed

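RNA from each of 6 whole hearts was sequenced as paired reads from TruSeq libraries. The authors used STAR to place trimmed reads on mm10, as the study's methods state, and counted uniquely mapped reads per gene with featureCounts, while the submitters' processing notes name HTSeq and DESeq2. They deposited a count and an FPKM per gene and heart. No gene length is listed, so it was worked out from the deposited counts, FPKM and library totals, and the same length fitted all 6 hearts. That length was within 1 base of the mean transcript length for 76.0% of 26680 genes. Coordinates are from GENCODE M21 (GRCm38), which held 46488 of the 46983 genes listed and all 44 collagen genes.

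The deposited counts were filtered with filterByExpr (minimum count 10), scaled by TMM and tested with the quasi-likelihood test of edgeR 4.0.16 in R 4.3.3, mutant against wild type, two-sided, with Benjamini-Hochberg adjustment over the 17473 genes tested and a threshold of 0.05. SE is the standard error of the log2 fold change. For edgeR it is approximate, worked out as the absolute log2 fold change over the square root of the F statistic of the test. For DESeq2 it is the value the package reports. Alternatives were DESeq2 1.42.0, limma 3.58.1 (voom, and log2(FPKM + 1) or log2(FPKM + 0.1)), other scalings and filters, robust dispersion, a trend on gene length and leaving out each heart. DESeq2 with each heart left out, and levels and class shares per longest transcript, were added after seeing the data. The tests were run first on simulated data with known changes. Each library is 1 heart. A p-value sets the difference between the groups against the spread between hearts, which the packages moderate over all genes.

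The collagen genes, the pathway list and the marker lists were chosen with earlier results of these data known. Genes were named if they had an unadjusted p under 0.05, were among the 10 collagen genes of highest FPKM, led their class, were Col8a1 or, in a pathway sublist, had the smallest p. Genes named outside this rule (among them Col9a1, Col28a1, Ddr1, Ddr2 and the partner chains in ratios) were chosen after their values were seen. Promoter windows came from a RefSeq table of 32851 windows.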

Additional observations from a re-analysis of the deposited data

How the results depend on the processing

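With 3 hearts per group and 0 genes past the edgeR threshold, the settings mainly moved counts of calls. Genes past the threshold numbered 132 with DESeq2, 34 without the filter on low counts, 6 with the gene length trend, 41 with that trend and without wild type replicate 5, 6 at an adjusted p under 0.1, and 0 to 44 with a heart left out, 44 of them without wild type replicate 5. Collagen genes past it were 2 with DESeq2 (Col8a1 and Col8a2), 1 without the filter and 1 with the length trend and without wild type replicate 5 (both Col8a1), and 0 to 1 with a heart left out (Col8a1, without wild type replicate 5). By DESeq2 they were 1 to 5 with a heart left out: Col8a1 alone without mutant replicate 10, and Col1a1, Col1a2, Col8a1, Col8a2 and Col14a1 without mutant replicate 1. In the first of these fits DESeq2 called 71 of 21379 genes and in the second 143 of 17634. Its calls over all genes were 71 to 447 with a heart left out. Collagen genes at an unadjusted p under 0.05 were 2 to 7 higher and 1 to 5 lower with a heart left out. Pathway genes past the threshold were 2 with DESeq2 and 1 without the filter, 1 with the length trend, 1 with that trend and without wild type replicate 5, and 0 to 1 with a heart left out. Pathway genes at an unadjusted p under 0.05 were 4 with library totals as the only scaling and 3 to 10 with a heart left out. For neither list is the share of all genes at that p given in these fits, so the counts describe the settings and not the lists. The median log2 fold change of the collagen genes was -0.10 to 0.16 with a heart left out.

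Directions turned for 4 named genes close to zero. Col2a1 was at 0.0013 with limma-voom and -0.46 to 0.10 with a heart left out. Col6a1 was at 0.011 without the filter, 0.012 with the length trend and without wild type replicate 5, and -0.15 to 0.077 with a heart left out. Col16a1 was at -0.14 to 0.042 and Col18a1 at -0.085 to 0.44 with a heart left out, and Col18a1 at -0.052 with the length trend and without wild type replicate 5. The causes were not tested. Of the values of single named genes under the alternatives, 399 kept direction and side of the threshold, 11 passed it and 13 turned. No paired analysis was possible because the groups share only 1 replicate number, which the labels do not tie to a litter or batch.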

Other observations

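Col2a1 and Col13a1, the latter a transmembrane collagen, had closely grouped hearts apart from wild type replicate 5. Col13a1 was at 47.2, 46.6 and 29.6 CPM in the wild type hearts and 35.1, 35.0 and 34.1 CPM in the mutant hearts. Without wild type replicate 5, DESeq2 gave Col2a1 a log2 fold change of -0.46 ± 0.085 (SE, adjusted p 1.72e-05) and Col13a1 one of -0.44 ± 0.092 (SE, adjusted p 0.000401), among 447 genes past the threshold in that fit. With all hearts both DESeq2 adjusted p-values were near 1. These genes were picked after their values were seen.

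Several collagen genes of other tissues were present at low levels. Col17a1, the hemidesmosome collagen of skin, was at 1.37, 1.23 and 1.14 CPM in the wild type hearts and 1.27, 0.782 and 1.25 CPM in the mutant hearts. Col7a1, the anchoring fibril of skin, was at 2.31, 2.90 and 3.64 CPM in the wild type hearts and 3.42, 2.44 and 1.85 CPM in the mutant hearts. Both had overlapping groups. The 8 foregut and airway epithelium markers summed to 1.15, 6.02 and 14.6 CPM in the wild type hearts and 2.56, 14.8 and 1.55 CPM in the mutant hearts. The highest sums were thus in wild type replicate 5 and mutant replicate 5.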
